A study of Mus musculus with 10 samples.

Results

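Interferon signalling genes and interferon-stimulated genes were followed in lung tissue of mice, as a set of 47 genes out of 54532 in the deposited count table. The members were taken by gene name: a type I interferon (Ifnb1), 4 receptor chains, 4 transcription factors, and 38 effectors outside the families of guanylate-binding proteins, immunity-related GTPases, IFIT and OAS proteins, PYHIN proteins and Schlafens. Of the 47, 46 passed the filter on low counts. Every mouse was wild-type (WT). Lungs treated with LPS after recombinant TSLP formed the LPS+TSLP group (4 libraries), lungs treated with LPS alone formed the LPS group (3 libraries), and lungs given vehicle formed the Vehicle group (3 libraries). LPS is a bacterial outer-membrane lipid that is sensed by the receptor TLR4, and TSLP (thymic stromal lymphopoietin) is a cytokine made by epithelial cells. Strain, sex, age, doses, routes, times and what the vehicle contained are not given in the sources used here, and no group received TSLP alone. The labels do not say that the libraries of a group came from separate animals, so the p-values measure only the spread between these libraries.

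Interferons are secreted proteins that put cells into an antiviral and antimicrobial state. Type I interferons bind a receptor made of IFNAR1 and IFNAR2, and interferon gamma, the type II interferon of NK and T cells, binds IFNGR1 and IFNGR2. Receptor-bound Janus kinases phosphorylate STAT proteins, and STAT2 joins IRF9 in a complex that binds interferon-stimulated response elements (ISRE) in target promoters. A different element, GAS, is used downstream of interferon gamma. In macrophages TLR4 is known to reach the Ifnb1 promoter through the adaptor TRIF and the kinase TBK1, so LPS is a classical inducer of interferon-stimulated genes.

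Total counts were 16175172 to 18374461 per library, and 17139 genes were tested. LPS+TSLP replicate 1 stood apart: mitochondrial genes took 13.1% of its counts, against 2% to 6.5% in LPS+TSLP replicates 2 to 4, between 1.2% and 2.58% in the LPS libraries and between 1.11% and 1.27% in the Vehicle libraries. LPS replicate 1 had 206 CPM (counts relative to library size, scaled by TMM) of the X-inactivation RNA Xist, against at most 0.452 CPM in any other library, and 0 CPM of the Y-linked Ddx3y. The other libraries had 59.7 to 94.8 CPM of Ddx3y in LPS+TSLP, 70.1 and 89.6 CPM in LPS, and 6.03 to 11.4 CPM in Vehicle. So the LPS group mixed libraries with and without Ddx3y. Apart from LPS replicate 1, every treated library had more Ddx3y than every Vehicle library. The part of these differences in the results was not tested. Lung epithelial markers were high in every library, with a summed level over 8 genes of 25386 to 38475 CPM in LPS+TSLP, 14748 to 39052 CPM in LPS and 25443 to 41044 CPM in Vehicle. The sum does not show single genes. In 4 of the 8 every LPS library lay below every Vehicle library, against 25.1% of all tested genes. Values of single libraries are given in the order of their replicate numbers. In whole tissue, fewer cells of a type and less RNA per cell cannot be told apart.

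Some promoters of members hold letter matches to the ISRE or GAS elements, and 4 of those with an ISRE core are shown as examples. Isg15 and Bst2 are from members that rose after LPS, and Rsad2 and Phf11b from members that were not called. The reference was RefSeq on GRCm38.p6, from 250 bases before to 50 bases after each start, which matched 37 of the 47 members. The ISRE core was searched on both strands as GAAA, any 2 bases and GAAA again (TTTC for GAAA on the opposite strand), and GAS as TTCNNNGAA, which reads alike on both strands; a base could belong to more than 1 match. The 150 bases before the start are given 5′ to 3′ on the gene's strand, which is minus in all 4, and capitals mark the ISRE core matches on either strand, joined in Bst2 by an overlapping GAS match. The windows are chr4:156200819-156200968 for Isg15, chr8:71537473-71537622 for Bst2, chr12:26456453-26456602 for Rsad2 and chr14:59341331-59341480 for Phf11b.
Isg15: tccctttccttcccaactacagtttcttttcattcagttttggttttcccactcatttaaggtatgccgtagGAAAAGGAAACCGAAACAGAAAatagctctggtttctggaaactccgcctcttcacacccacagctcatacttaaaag
Bst2: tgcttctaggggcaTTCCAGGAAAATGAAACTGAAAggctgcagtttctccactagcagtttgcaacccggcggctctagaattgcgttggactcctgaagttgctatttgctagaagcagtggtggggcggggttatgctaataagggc
Rsad2: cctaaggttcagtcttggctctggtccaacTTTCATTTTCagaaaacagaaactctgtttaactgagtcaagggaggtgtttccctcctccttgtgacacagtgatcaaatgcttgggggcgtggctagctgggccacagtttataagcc
Phf11b: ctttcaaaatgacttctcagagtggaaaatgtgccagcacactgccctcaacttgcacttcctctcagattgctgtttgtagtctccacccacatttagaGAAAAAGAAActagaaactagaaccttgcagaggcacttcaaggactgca
The Isg15 window held 3 overlapping ISRE cores, the Bst2 window 2, and the Rsad2 and Phf11b windows 1 each. An ISRE core occurred in 12 of 37 members with a promoter (32.4%), against 3.99% of 27025 genes. A GAS match occurred in 9 of 37 (24.3%), against 9.55% of genes. A match describes letters in this window and was not tested as a binding site.

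After LPS many of the interferon-stimulated genes were higher than in Vehicle, and none of the receptor chains was called. In LPS against Vehicle, 13 of 46 members rose (28.3%) and 0 fell, against 14.2% of all tested genes that rose and 10.7% that fell (edgeR quasi-likelihood test, Benjamini-Hochberg adjusted p under 0.05, which is the rule for every call here). The 13 were the transcription factors Irf1 and Irf7, the RNA sensors Ifih1 and Eif2ak2, Isg15 and Herc6 of the ISG15 pathway, the restriction factors Bst2, Samd9l and Rtp4, the membrane protein Ifitm3, and Xaf1, Ifi44 and Ifi35. The median log2 fold change was 1.04 over the members and 0.0084 over all tested genes, and 40 of 46 members lay above 0, against 50.4% of all genes. In 27 of 46 members (58.7%) the 3 LPS libraries were each higher than the 3 Vehicle libraries, against 24.7% of all tested genes, and in 0 members below them, against 25.1%. The receptor chains had a median of 0.05 with 0 of 4 called, and the other 42 tested members a median of 1.23 with 13 called. The counts by role below come from groups of 3 to 10 members. They stand beside the same shares of all tested genes, 14.2% called higher and 24.7% without overlap above Vehicle.

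**Figure D1:**
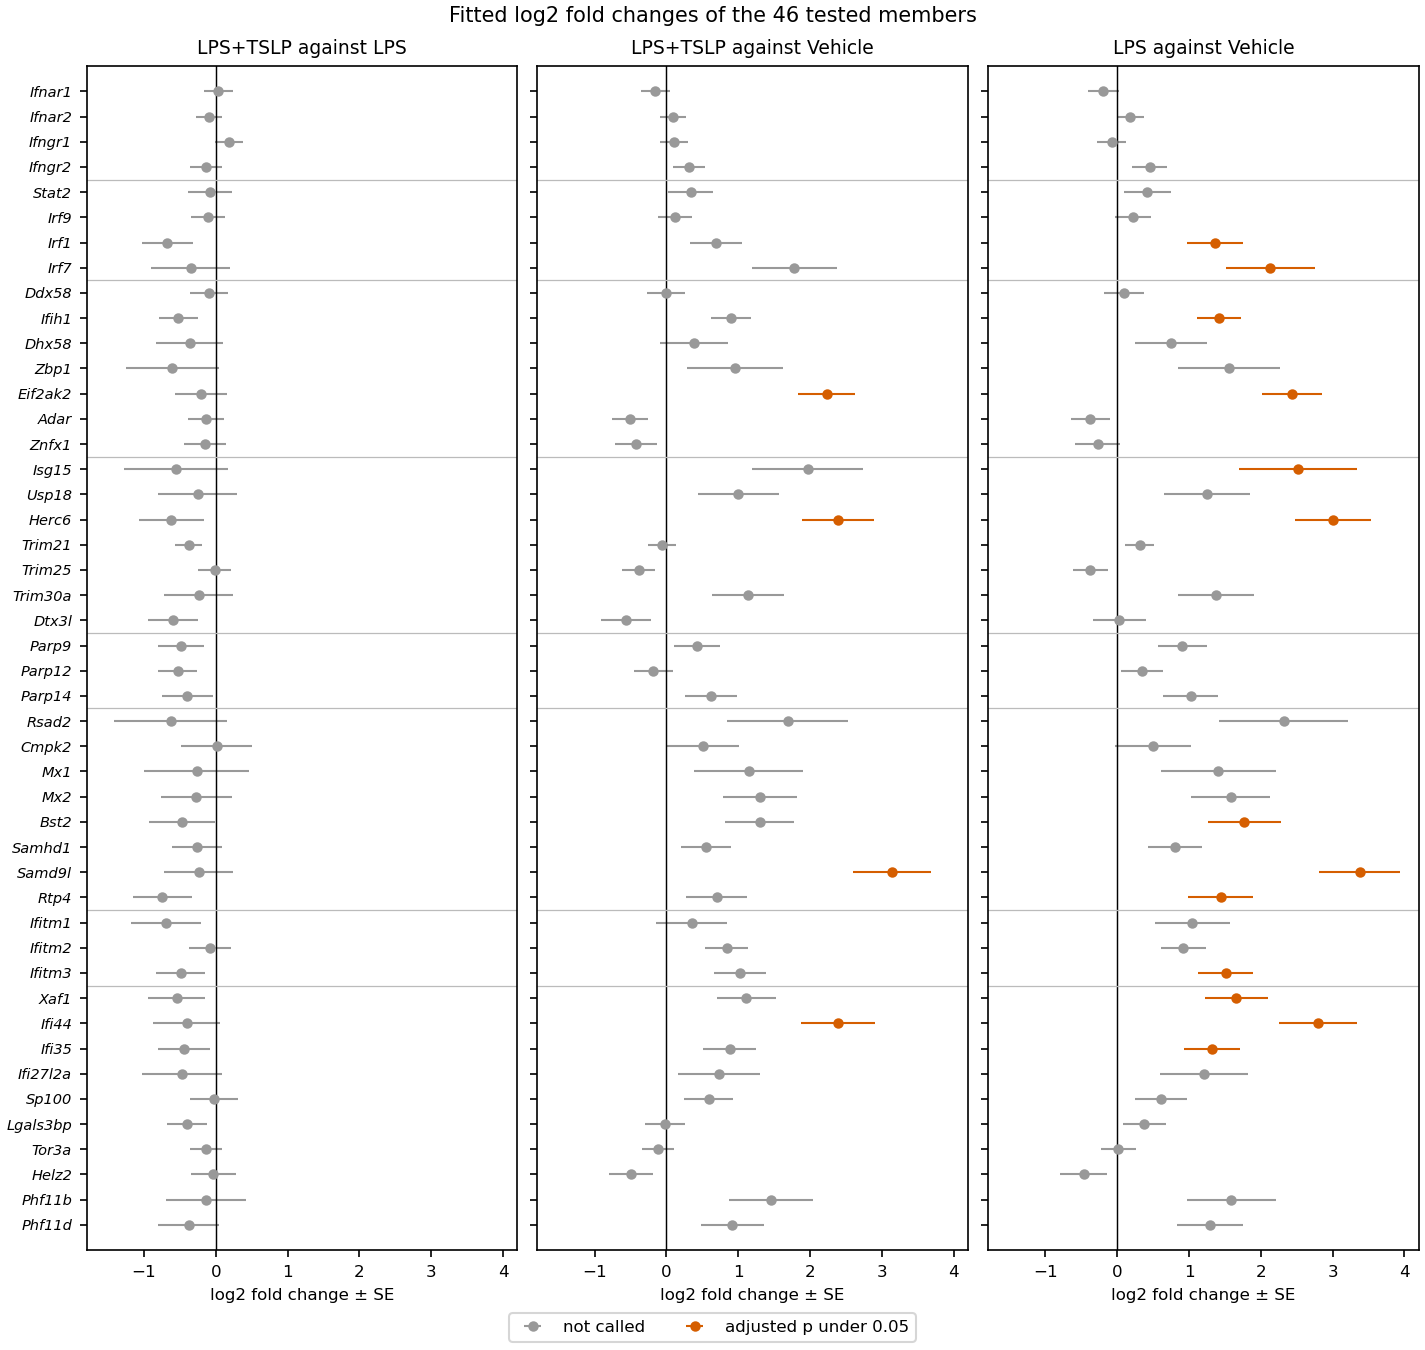
Fitted log2 fold changes (x axis, points, with bars of 1 SE) of the 46 tested members, ordered by role (rows, separated by grey lines), in LPS+TSLP against LPS, LPS+TSLP against Vehicle and LPS against Vehicle. Orange marks an adjusted p under 0.05: 0, 4 and 13 members in the 3 panels.

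Single libraries weighed on these calls. Eif2ak2, Ifih1, Herc6, Samd9l and Ifi44 were called in each of the 10 fits that left out 1 library, and the other 8 were not. The fits without Vehicle replicate 1 and without LPS replicate 1 each called 5 members (5.80% and 8.83% of all tested genes rose there), and those without Vehicle replicate 2 and without LPS replicate 2 called 8 (5.75% and 10.3%). The fit without LPS+TSLP replicate 1 called 19 members and 17.5% of all genes as higher. That library is in neither group compared and enters through the filter, scaling and spread shared by all groups, whose parts were not separated. The median log2 fold change of the members stayed between 0.72 and 1.27 in the 10 fits.

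The ligand was near the limit of detection. Ifnb1, interferon beta (ENSMUSG00000048806), had 9, 1, 0 and 0 counts in the 4 LPS+TSLP libraries, 3, 3 and 1 counts in the 3 LPS libraries, and 0 counts in each Vehicle library. The 3 Vehicle libraries together held 53512099 counts, so 0 counts allow up to 0.0561 CPM, counting error only. Every LPS library had at least 1 count, but the gene did not pass the filter on low counts and was not tested. Of the other interferon genes looked up, the type I genes Ifna1, Ifna2, Ifna4, Ifna5, Ifna6 and Ifne and the type III gene Ifnl3 had 0 counts in all 10 libraries. The type I gene Ifna9 had 5 counts in LPS+TSLP replicate 1 and 0 elsewhere. Ifnk, also type I, had 2 counts in LPS+TSLP replicate 2 and 1 in LPS replicate 2, and the type III gene Ifnl2 had 1 count each in LPS replicates 2 and 3.

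The 4 receptor chains overlapped between the 3 groups. Ifnar1 had 95.5, 111, 119.8 and 114 CPM in the 4 LPS+TSLP libraries, 77.3, 108 and 137 CPM in the 3 LPS libraries, and 109.5, 123 and 136 CPM in the 3 Vehicle libraries. Ifnar2 had 75.5, 90.8, 101 and 90 CPM in the 4 LPS+TSLP libraries, 73.9, 105 and 109 CPM in the 3 LPS libraries, and 76.3, 87.6 and 88.6 CPM in the 3 Vehicle libraries. For both type I receptor chains the groups overlapped, and the LPS libraries covered the whole Vehicle range of Ifnar1. Ifngr1, the ligand-binding chain for interferon gamma, had 176, 248, 229 and 291 CPM in the 4 LPS+TSLP libraries, 201, 224 and 198 CPM in the 3 LPS libraries, and 210.0, 229.7 and 218 CPM in the 3 Vehicle libraries. Ifngr2, its signalling chain, had 164, 98.8, 99 and 118 CPM in the 4 LPS+TSLP libraries, 139, 101 and 156 CPM in the 3 LPS libraries, and 87.7, 92.3 and 109 CPM in the 3 Vehicle libraries. Here too the groups overlapped, with the lowest Ifngr2 values in Vehicle and the highest in LPS+TSLP replicate 1 and LPS replicate 3. The fitted log2 differences of LPS against Vehicle were −0.19 for Ifnar1, 0.19 for Ifnar2, −0.08 for Ifngr1 and 0.45 for Ifngr2, with adjusted p of 0.185 or more. The small negative values of Ifngr1 and Ifnar1 changed sign in 1 alternative each. Of the stretches of Ifnar2 transcripts, 13.5% also occur in another gene, so its counts are uncertain to that extent.

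Among the transcription factors, Irf1 and Irf7 rose after LPS, and Stat2 and Irf9 did not pass the test. Irf1, which carries much of the interferon gamma response, had 534, 253, 494 and 211 CPM in the 4 LPS+TSLP libraries, 773, 475 and 539.8 CPM in the 3 LPS libraries, and 159, 242 and 296 CPM in the 3 Vehicle libraries. Each LPS library exceeded each Vehicle library (log2 fold change 1.36, SE 0.39, adjusted p = 0.0271). Irf7, which amplifies type I interferon production, had 695, 272, 612 and 153 CPM in the 4 LPS+TSLP libraries, 638, 624 and 397 CPM in the 3 LPS libraries, and 40.4, 193 and 144 CPM in the 3 Vehicle libraries. Again the LPS and Vehicle libraries did not overlap (log2 fold change 2.13, SE 0.62, adjusted p = 0.0289), and the 2 low LPS+TSLP libraries, replicates 2 and 4, had values above and inside the Vehicle range in that order. Stat2 had 208, 152, 242 and 120.2 CPM in the 4 LPS+TSLP libraries, 149, 238 and 187 CPM in the 3 LPS libraries, and 84.6, 178 and 166 CPM in the 3 Vehicle libraries. Irf9 had 181, 118, 162 and 102 CPM in the 4 LPS+TSLP libraries, 152, 152 and 149.5 CPM in the 3 LPS libraries, and 95.7, 158 and 136 CPM in the 3 Vehicle libraries. Irf9 was at nearly one level in the 3 LPS libraries, between the Vehicle libraries rather than above them, and the fitted log2 differences were 0.42 (SE 0.33, adjusted p = 0.367) for Stat2 and 0.22 (SE 0.25, adjusted p = 0.552) for Irf9. Irf1 lost its call without Vehicle replicate 1, Vehicle replicate 2 or LPS replicate 1.

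**Figure D2:**
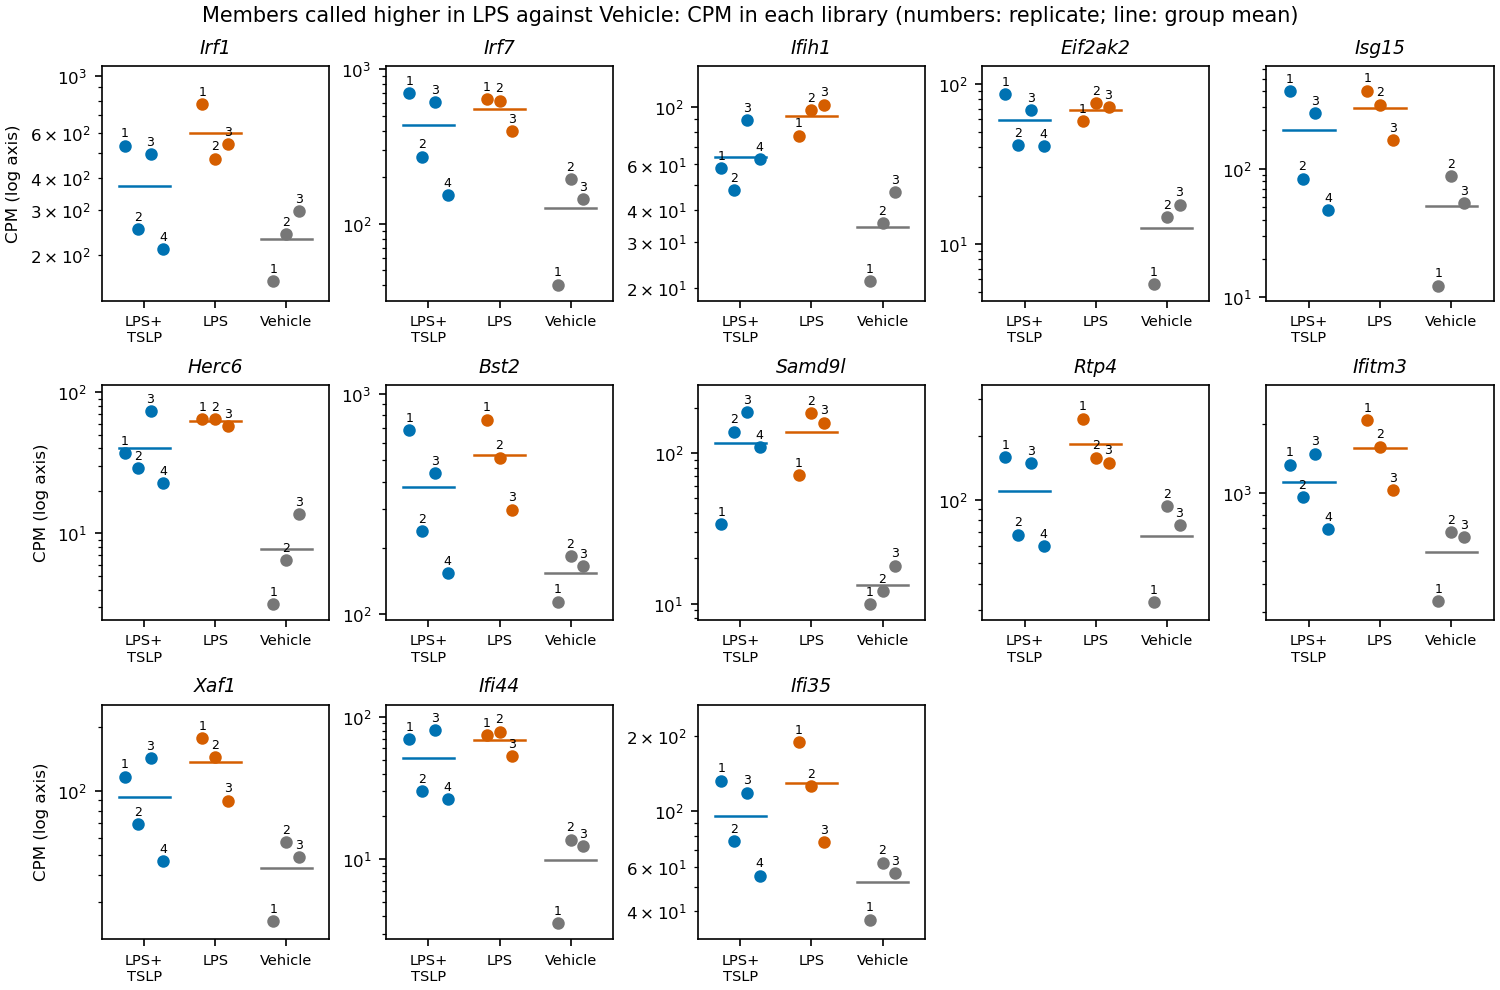
CPM in each library for the 13 members that rose in LPS against Vehicle, 1 panel a gene on its own log axis, with LPS+TSLP, LPS and Vehicle libraries as points and the group mean as a line. In every panel the 3 LPS points lie above the 3 Vehicle points, and the LPS+TSLP points reach down into the Vehicle range in 7 of the 13.

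Of 7 sensors of RNA and nucleic acids, 2 rose after LPS. Eif2ak2 encodes the kinase PKR, which halts translation on binding double-stranded RNA (ENSMUSG00000024079, chromosome 17, 78852564 to 78882573, minus strand). It had 86.4, 41.3, 68.6 and 40.6 CPM in the 4 LPS+TSLP libraries, 58.2, 75.6 and 71.2 CPM in the 3 LPS libraries, and 5.56, 14.7 and 17.5 CPM in the 3 Vehicle libraries. Every LPS+TSLP and LPS library exceeded the Vehicle libraries, and LPS against Vehicle differed accordingly (log2 fold change 2.44, SE 0.42, adjusted p = 0.00409). Ifih1 encodes MDA5, a cytoplasmic sensor of long double-stranded RNA (ENSMUSG00000026896, chromosome 2, 62595798 to 62646255, minus strand). It had 57.9, 47.7, 89 and 62.9 CPM in the 4 LPS+TSLP libraries, 77.6, 97 and 102 CPM in the 3 LPS libraries, and 21.2, 35.5 and 46.9 CPM in the 3 Vehicle libraries. The groups separated in the same way in LPS (log2 fold change 1.42, SE 0.30, adjusted p = 0.0092), and the LPS+TSLP libraries also lay above Vehicle, the lowest of them by less than 1 CPM. Zbp1, a sensor of Z-form nucleic acid that triggers necroptosis, had all LPS libraries above Vehicle without passing the test, with a log2 difference of 1.56 (SE 0.71, adjusted p = 0.128), and Dhx58 (LGP2) differed by 0.75 (SE 0.50, adjusted p = 0.288). Ddx58 (RIG-I) had a mean of 111 ± 20.9 CPM in LPS and 104 ± 27.6 CPM in Vehicle (SD, n = 3 each). The RNA-editing enzyme Adar and the helicase Znfx1 had fitted values of −0.37 and −0.27 and were not called. Of the stretches of Adar, 16.2% also occur in Chrnb2, a gene that overlaps its exons on the opposite strand.

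In the ISG15 and ubiquitin pathway, the ligase Herc6 and the modifier Isg15 rose, and 5 of 7 members had LPS libraries clear of Vehicle. Herc6, the main ISG15 ligase in mice (ENSMUSG00000029798, chromosome 6, 57581000 to 57664632, plus strand), had 36.9, 29, 73.4 and 22.6 CPM in the 4 LPS+TSLP libraries, 64.5, 64.8 and 57.3 CPM in the 3 LPS libraries, and 3.15, 6.46 and 13.7 CPM in the 3 Vehicle libraries. The LPS libraries were the narrowest group, all above 57 CPM, and no Vehicle library reached 14 CPM (log2 fold change 3.0, SE 0.53, adjusted p = 0.00468). Of its transcript stretches 19.3% also occur in other genes, and 13.7% of its exon bases overlap Gm45193 on the same strand, so its counts are uncertain to that extent. Isg15, a ubiquitin-like protein that is conjugated to other proteins during the interferon response, had 403, 84, 269 and 47.6 CPM in the 4 LPS+TSLP libraries, 405, 315 and 166 CPM in the 3 LPS libraries, and 12.4, 88 and 54 CPM in the 3 Vehicle libraries. LPS and Vehicle did not overlap (log2 fold change 2.52, SE 0.82, adjusted p = 0.0439), but the call held in 4 of the 10 fits without a library. Usp18, which removes ISG15 and also inhibits the type I receptor, differed by 1.25 (SE 0.60, adjusted p = 0.143) and Trim30a, a mouse TRIM ligase, by 1.38 (SE 0.53, adjusted p = 0.0758). Trim21, the cytosolic antibody receptor, lay above Vehicle in all LPS libraries by a small margin, 0.31 (SE 0.20, adjusted p = 0.275). Trim25, a ligase acting on RIG-I, had a fitted value of −0.37. Dtx3l, a ligase that works with PARP9, had means of 107 ± 41.2 CPM in LPS and 104 ± 32.4 CPM in Vehicle (SD, n = 3 each).

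None of the 3 ADP-ribosylation genes was called after LPS, although 2 of them did not overlap between the groups. Parp9, the partner of DTX3L, had 149, 63.2, 129 and 74.1 CPM in the 4 LPS+TSLP libraries, 145, 145 and 146 CPM in the 3 LPS libraries, and 48.4, 88.9 and 94.7 CPM in the 3 Vehicle libraries. The 3 LPS libraries agreed to within 1 CPM and lay above Vehicle, where replicate 1 was lowest (log2 fold change 0.91, SE 0.34, adjusted p = 0.0704). Parp14, a mono-ADP-ribosyl transferase, had 336, 150, 355 and 209.7 CPM in the 4 LPS+TSLP libraries, 287, 315 and 436 CPM in the 3 LPS libraries, and 93.3, 184 and 234 CPM in the 3 Vehicle libraries. LPS lay above Vehicle here as well (log2 fold change 1.02, SE 0.39, adjusted p = 0.0729), whereas Parp12, an antiviral zinc-finger family member, overlapped (log2 fold change 0.35, SE 0.29, adjusted p = 0.401). Parp9 and Dtx3l lie on opposite strands of chromosome 16 and overlap by 682 bases, and since the strand setting of the counting is not given, reads of that stretch cannot be assigned between them.

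The antiviral restriction factors all had positive values after LPS, and 3 of 8 rose. Samd9l, a cytoplasmic restrictor of poxviruses (ENSMUSG00000047735, chromosome 6, 3372257 to 3399572, minus strand), had 33.8, 139, 187 and 110.0 CPM in the 4 LPS+TSLP libraries, 71.1, 185 and 159 CPM in the 3 LPS libraries, and 9.94, 12.1 and 17.9 CPM in the 3 Vehicle libraries. Every LPS+TSLP and LPS library exceeded the highest Vehicle library, and its change was the largest among the members (log2 fold change 3.38, SE 0.57, adjusted p = 0.00383). Unlike most members it was lowest, among the treated libraries, in LPS+TSLP replicate 1 and LPS replicate 1. Bst2, tetherin, which holds budding virions at the cell surface and whose promoter is shown above, had 685, 238, 438 and 154 CPM in the 4 LPS+TSLP libraries, 766, 514 and 299 CPM in the 3 LPS libraries, and 114, 184 and 165 CPM in the 3 Vehicle libraries. LPS and Vehicle did not overlap (log2 fold change 1.77, SE 0.51, adjusted p = 0.0288), and LPS+TSLP replicate 4 fell inside the Vehicle range. Rtp4, an interferon-induced inhibitor of flaviviruses, rose as well (log2 fold change 1.44, SE 0.45, adjusted p = 0.039). Of those not called, Rsad2 (viperin, which makes a chain-terminating nucleotide) had a fitted value of 2.32 (SE 0.89, adjusted p = 0.0783), Mx2 of 1.58 (SE 0.55, adjusted p = 0.0543), Mx1 of 1.41 (SE 0.80, adjusted p = 0.215), the nucleotide hydrolase Samhd1 of 0.81 (SE 0.37, adjusted p = 0.132) and the mitochondrial kinase Cmpk2 of 0.50 (SE 0.53, adjusted p = 0.511). Rsad2, Mx2 and Samhd1 had no overlap between LPS and Vehicle, and Mx1 and Cmpk2 overlapped. In the gene reference Mx2 is annotated as a polymorphic pseudogene, and the strain of these mice is not given. Rsad2 and Cmpk2 are neighbours on chromosome 12, 12.8 kb apart on opposite strands.

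All 3 IFITM genes, whose products block fusion of virus with endosomal membranes, lay above Vehicle in every LPS library, and 1 rose. Ifitm3 had 1328, 956, 1485 and 691 CPM in the 4 LPS+TSLP libraries, 2082, 1596 and 1026 CPM in the 3 LPS libraries, and 334, 673 and 640.5 CPM in the 3 Vehicle libraries. LPS lay above Vehicle throughout (log2 fold change 1.51, SE 0.38, adjusted p = 0.0168), as did every LPS+TSLP library, replicate 4 by a narrow margin. Ifitm2 had 204, 333, 350.0 and 221 CPM in the 4 LPS+TSLP libraries, 373, 284 and 223 CPM in the 3 LPS libraries, and 102, 162 and 201 CPM in the 3 Vehicle libraries. It too had LPS above Vehicle without passing the test (log2 fold change 0.92, SE 0.31, adjusted p = 0.0515), but 47.4% of its transcript stretches also occur in other genes, so its counts are uncertain; for Ifitm3 that share is 10.1%. Ifitm1 differed by 1.05 (SE 0.53, adjusted p = 0.163). The 3 genes lie together on chromosome 7, with gaps of 11.2 and 39.8 kb.

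Of the 10 nuclear and other interferon-stimulated genes, 3 rose. Ifi44, an interferon-induced cytoplasmic protein (ENSMUSG00000028037, chromosome 3, 151730922 to 151749960, minus strand), had 70, 30.2, 80.3 and 26.5 CPM in the 4 LPS+TSLP libraries, 74, 78.7 and 52.9 CPM in the 3 LPS libraries, and 3.54, 13.7 and 12.3 CPM in the 3 Vehicle libraries. No LPS or LPS+TSLP library fell into the Vehicle range (log2 fold change 2.79, SE 0.54, adjusted p = 0.00635). Xaf1, a pro-apoptotic partner of XIAP, had 116, 69.5, 142 and 46.5 CPM in the 4 LPS+TSLP libraries, 177, 144 and 89.6 CPM in the 3 LPS libraries, and 24.3, 57.2 and 48.6 CPM in the 3 Vehicle libraries. LPS lay above Vehicle (log2 fold change 1.66, SE 0.44, adjusted p = 0.0204), with LPS replicate 3 the lowest of its group. Ifi35 rose by 1.33 (SE 0.39, adjusted p = 0.031) on the log2 scale. Of its stretches, 11.8% also occur in Gm11626, a gene that overlaps its exons on the opposite strand. The paired zinc-finger genes Phf11b and Phf11d, 6.06 kb apart on chromosome 14, had fitted values of 1.59 (SE 0.62, adjusted p = 0.0801) and 1.3 (SE 0.46, adjusted p = 0.059), with 47.2% and 12% of their stretches shared with other genes. Ifi27l2a had a value of 1.21 (SE 0.61, adjusted p = 0.163), the nuclear body protein Sp100 of 0.61 (SE 0.36, adjusted p = 0.229), the secreted glycoprotein Lgals3bp of 0.38 (SE 0.30, adjusted p = 0.371) and the helicase Helz2 of −0.47 (SE 0.33, adjusted p = 0.316). The torsin family gene Tor3a had means of 124 ± 21.9 CPM in LPS and 122 ± 19.6 CPM in Vehicle (SD, n = 3 each).

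Levels between genes can be set side by side only per length. In CPM per kilobase of exon, the highest group means after LPS were 2312 for Ifitm3, 583 for Bst2, 448 for Ifitm2, 419 for Ifi27l2a and 391 for Isg15. The receptor chains ran from 18.1 for Ifnar1 to 73 for Ifngr1 on the same scale. Ifitm3 was also the highest member in LPS+TSLP, at 1644, and in Vehicle, at 809.9. The lowest tested members after LPS were Mx2 at 5.09 and Herc6 at 6.69.

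Whether TSLP before LPS changed these genes was asked by LPS+TSLP against LPS. No member was called in either direction (0 of 46), and edgeR called 0% of all 17139 tested genes. At an unadjusted p under 0.05 the count was 0 of 46 members, against 8.10% of all genes. Without LPS+TSLP replicate 1 it was 9 members. The share of all genes in that fit was not computed, so the 9 cannot be set against the 8.10%. DESeq2 called 34 genes in all, 22 higher and 12 lower, and limma-voom called 0; neither called a member. The smallest adjusted p of a member was 0.647. Fitted values were below 0 in 43 of 46 members (40 to 43 under the other 3 scalings), with a median of −0.31, while 52.2% of all genes lay above 0 with a median of 0.02. Without LPS+TSLP replicate 4 the median was −0.10 and 31 members lay below 0, and without LPS+TSLP replicate 1 it was −0.58 with 41 below. In 2 of 46 members, Trim21 and Lgals3bp, every LPS+TSLP library was below all LPS libraries, and in 0 members above, against 3.54% and 3.88% of all genes.

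The 5 members with the smallest unadjusted p in that comparison were Trim21, Parp12, Irf1, Ifih1 and Rtp4. Trim21 had 35.7, 28.9, 41.6 and 30.5 CPM in the 4 LPS+TSLP libraries, against 42.2, 44.1 and 47 CPM in the 3 LPS libraries (27.8, 38.4 and 41 CPM in the 3 Vehicle libraries). The highest LPS+TSLP library fell just short of the lowest LPS library, with a log2 fold change of −0.38 (unadjusted p = 0.0703, edgeR quasi-likelihood test across all genes, adjusted p = 0.647). Parp12 had 157, 67.6, 136 and 98.1 CPM in the 4 LPS+TSLP libraries, against 174, 151 and 171 CPM in the 3 LPS libraries (97, 155 and 139 CPM in the 3 Vehicle libraries). Its LPS+TSLP replicate 1 lay inside the LPS range and replicates 2 and 4 below or at the bottom of the Vehicle range (log2 fold change −0.53, SE 0.27, adjusted p = 0.65). For Irf1 and Ifih1, whose libraries are given above, the values were −0.68 (SE 0.35, adjusted p = 0.66) and −0.52 (SE 0.28, adjusted p = 0.668). Rtp4 had 159, 68.3, 149 and 60.3 CPM in the 4 LPS+TSLP libraries, against 242, 158 and 149.8 CPM in the 3 LPS libraries (32.8, 93.4 and 75.6 CPM in the 3 Vehicle libraries), a log2 difference of −0.74 (SE 0.41, adjusted p = 0.688). Lgals3bp, which did not overlap, had 385, 246, 405 and 371 CPM in the 4 LPS+TSLP libraries, against 407, 499 and 489 CPM in the 3 LPS libraries (log2 fold change −0.40, SE 0.28, adjusted p = 0.751).

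In most members LPS+TSLP replicates 2 and 4 were lower than replicates 1 and 3. Replicates 1 and 3 lay above all 3 Vehicle libraries in 35 and 34 of 46 members, like the 32 to 34 members of the LPS libraries, while replicates 2 and 4 did so in 15 and 10. Over all tested genes the share above every Vehicle library was 34.5% to 40.6% in each of the 7 treated libraries. Replicates 2 and 4 were the lowest pair of the 4 libraries in 36 of 46 members, against 14.7% of all tested genes. This pair was picked from these same values, and the members are not independent of each other, so the count is a description. Every other pair was the lowest in 0 to 4 members and in 10% to 21.9% of all tested genes. Replicates 2 and 4 also lay below all 3 LPS libraries in 36 members each, against 7 in replicate 1 and 9 in replicate 3. Over all tested genes the shares below every LPS library were 27.1% and 22.6% in replicates 2 and 4, and 32.8% and 22.2% in replicates 1 and 3. The mitochondrial share was 13.1%, 6.5%, 5.35% and 2% in LPS+TSLP replicates 1 to 4, and its part in the split was not tested.

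**Figure D3:**
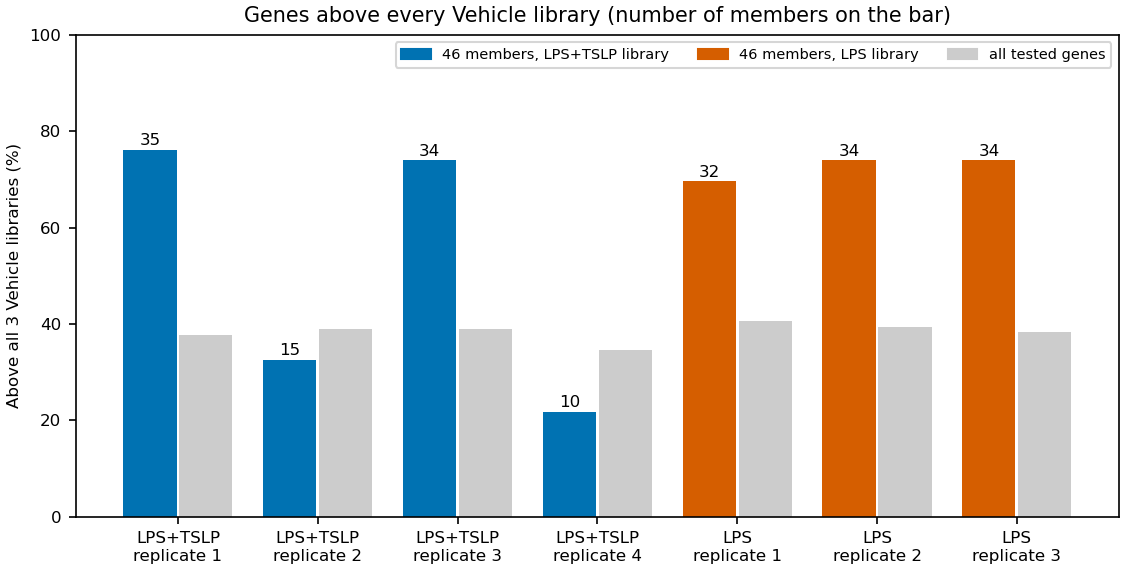
Share of genes (y axis, percent) whose CPM in a library exceeds all 3 Vehicle libraries, for each LPS+TSLP and LPS library; coloured bars are the 46 tested members, with their number on the bar, and grey bars all 17139 tested genes. LPS+TSLP replicates 2 and 4 stand at 15 and 10 members, and the other 5 libraries at 32 to 35.

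The mean log2 CPM of the 46 members gives 1 value per library. It was 7.31, 6.34, 7.24 and 6.22 in the 4 LPS+TSLP libraries, 7.20, 7.31 and 7.09 in the 3 LPS libraries, and 5.40, 6.52 and 6.38 in the 3 Vehicle libraries. Vehicle replicate 1 was lowest of its group in all 46 tested members, against 36.6% of all genes, and LPS+TSLP replicates 2 and 4 lay near Vehicle replicates 2 and 3. The median SD within a group on the log2 scale was 0.64 over members and 0.41 over all genes in LPS+TSLP, 0.34 and 0.36 in LPS, and 0.57 and 0.24 in Vehicle. These values are descriptions with no test. The restriction factors spread most widely by role, with means of 7.29, 5.89, 7.12 and 5.65 in LPS+TSLP, 7.08, 7.28 and 6.85 in LPS, and 4.48, 5.86 and 5.70 in Vehicle, while the receptor chains stayed between 6.80 and 7.19 in all 10 libraries.

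**Figure D4:**
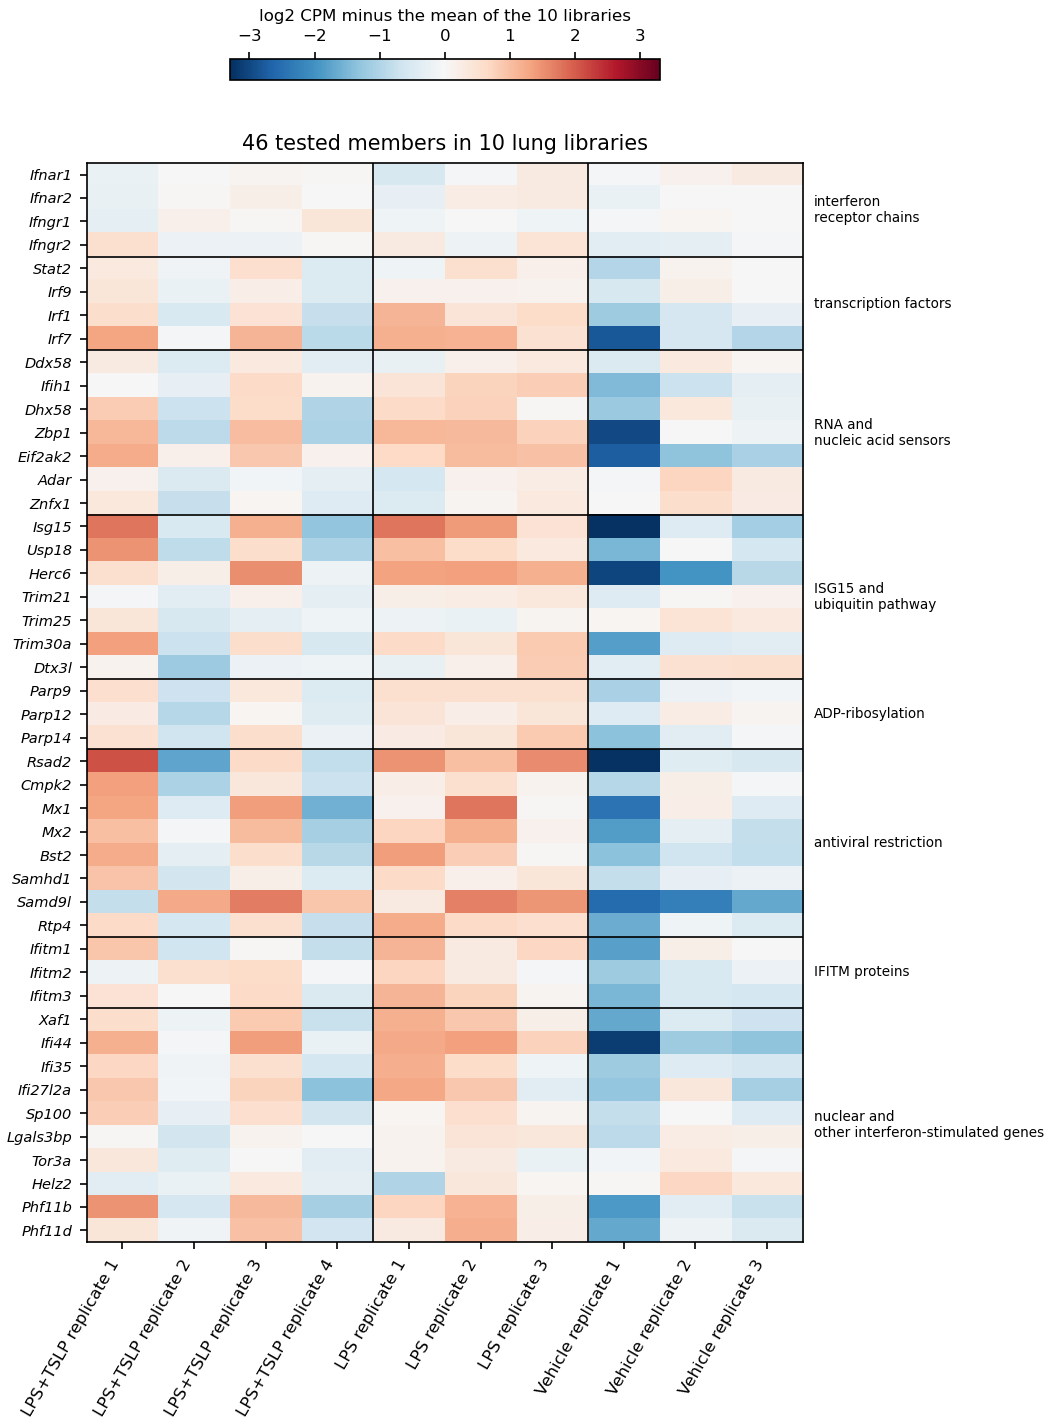
Log2 CPM of each tested member (rows, by role) in each library (columns, LPS+TSLP, LPS, Vehicle), as the difference from that gene's mean over the 10 libraries; the colour bar gives the scale. Vehicle replicate 1 is the lowest column of its group in all 46 rows, and LPS+TSLP replicates 2 and 4 are paler or lower than replicates 1 and 3 in most rows outside the receptor chains.

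Within LPS+TSLP, Ifng and the sums of NK and T cell markers and of monocyte and macrophage markers were lowest in replicates 2 and 4. Ifng, the gene of interferon gamma, had 9.6, 1.21, 9.27 and 0.427 CPM in the 4 LPS+TSLP libraries, 12.4, 6.33 and 4.5 CPM in the 3 LPS libraries, and 0.337, 1.07 and 0.874 CPM in the 3 Vehicle libraries. It was high in the same LPS+TSLP libraries, 1 and 3, and rose after LPS (log2 fold change 3.33, SE 1.01, adjusted p = 0.0336); Ifng was described here after its values were seen. The summed level of 8 NK and T cell markers was 111, 55.6, 129 and 61.9 CPM in LPS+TSLP, 164, 152 and 108 CPM in LPS, and 108, 166 and 80.9 CPM in Vehicle. That of 8 monocyte and macrophage markers was 795, 456, 733 and 456 CPM in LPS+TSLP, 599.9, 692 and 1028 CPM in LPS, and 452, 574 and 578 CPM in Vehicle. Among the LPS libraries the monocyte and macrophage sum was highest in replicate 3, where the mean of the members was lowest. No marker of either list was at 0 in all libraries, and their part in the result was not tested.

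**Figure D5:**
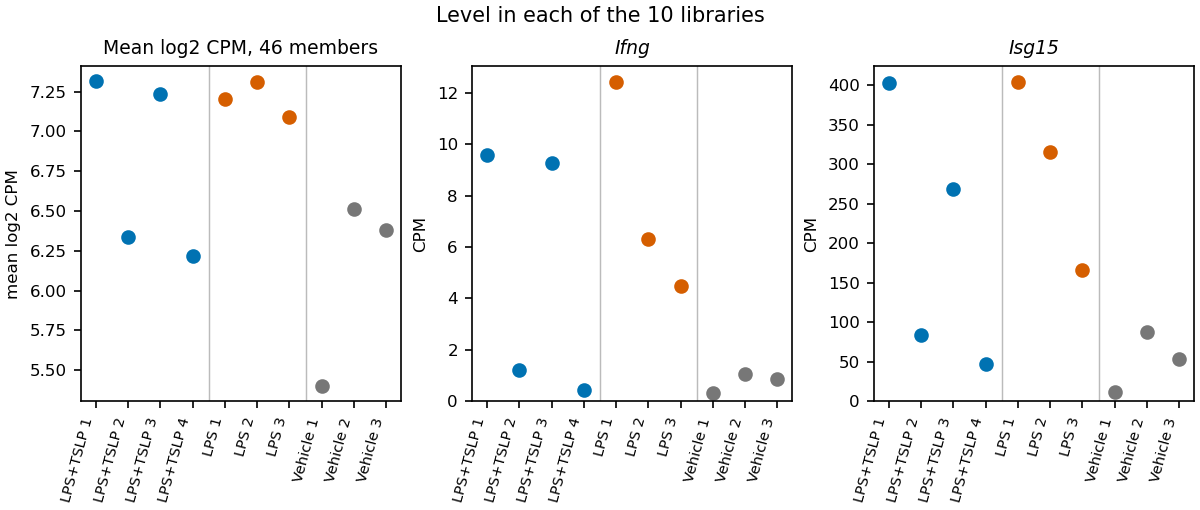
Level in each of the 10 libraries (x axis, LPS+TSLP, LPS, Vehicle): the mean log2 CPM of the 46 tested members, and the CPM of Ifng and Isg15, as 1 point a library. In all 3 panels LPS+TSLP replicates 2 and 4 lie below replicates 1 and 3 and below every LPS library.

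Neutrophil markers were distributed otherwise, and markers of plasmacytoid dendritic cells did not all share a pattern. The neutrophil sum was 123, 920.2, 1076 and 769 CPM in LPS+TSLP, 1695, 1591 and 2102 CPM in LPS, and 367, 578 and 1167 CPM in Vehicle, so the library highest in most members of its group, LPS+TSLP replicate 1, was the lowest in neutrophil markers. Vehicle replicate 1, lowest in all members, was also lowest of the Vehicle libraries in neutrophil and monocyte and macrophage markers. The plasmacytoid dendritic cell sum was 242, 232, 242 and 207 CPM in LPS+TSLP, 183 to 239 CPM in LPS and 61.0 to 67.7 CPM in Vehicle. Most of it came from Tcf4, which other cells express as well. Siglech, the most specific of these markers, had 11.7, 3.28, 9.43 and 1.77 CPM in the 4 LPS+TSLP libraries, 1.65, 6.83 and 2.55 CPM in the 3 LPS libraries, and 1.07, 1.39 and 1.47 CPM in the 3 Vehicle libraries. Siglech was higher in LPS+TSLP replicates 1 and 3 than in replicates 2 and 4. Among the LPS libraries Siglech was lowest in replicate 1, whereas the mean of the members was lowest in replicate 3. Siglech is 1 of 8 markers, stands outside the rules for naming genes, and was not called in LPS against Vehicle (log2 fold change 1.49, SE 0.71, adjusted p = 0.143). In that comparison 6 of the 8 markers had values above 0, and 2 had values below 0, Pacsin1 at −0.21 and Runx2 at −0.08. Library values of the other markers of this list are not given here. The part of these cell types in the members' values was not tested.

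LPS+TSLP against Vehicle shares its Vehicle libraries with the comparison above. In it 4 of 46 members rose (8.70%), against 8.82% of all tested genes, and 0 fell, against 5.35%. Eif2ak2 had a value of 2.23 (SE 0.40, adjusted p = 0.00699), Herc6 of 2.38 (SE 0.50, adjusted p = 0.0136), Samd9l of 3.14 (SE 0.55, adjusted p = 0.00635) and Ifi44 of 2.39 (SE 0.51, adjusted p = 0.0145). All LPS+TSLP libraries lay above all Vehicle libraries in 7 members (15.2%), against 15.7% of all genes, and the 7 were these 4 with Ifih1, Ifitm2 and Ifitm3. No member lay below, against 15.9%. The fitted value was above 0 in 35 of 46 members, against 51.6% of all genes, with a median of 0.65 against 0.03 over all tested genes. Irf7, at 1.78 (SE 0.59, adjusted p = 0.0631), and Isg15, at 1.97 (SE 0.77, adjusted p = 0.105), did not pass, and in LPS+TSLP replicates 2 and 4 Isg15 lay between the Vehicle values. Without LPS+TSLP replicate 4, 11 members rose, and 11.8% of all genes. Without Vehicle replicate 1, 2 members rose, Eif2ak2 and Samd9l, and 2.47% of all genes. With the trend on GC content removed, Herc6 and Ifi44 again lost their calls, and 4.48% of all genes rose. Of the 4 called members, only Eif2ak2 and Samd9l kept their calls in all 23 alternative fits. The GC content of the longest transcript was 38.8% for Samd9l, 39.4% for Herc6, 40.4% for Ifi44 and 43.9% for Eif2ak2, and its part in the calls was not tested.

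The signalling genes outside the members were looked up as a list of 38, of which 28 were tested. In LPS against Vehicle 8 rose (28.6%, against 14.2% of all tested genes) and 1 fell (against 10.7%), with a median log2 fold change of 0.61 against 0.0084 over all genes. Ptpn2, a phosphatase that dampens Janus kinase signalling, had 50.4, 46.8, 57 and 50.6 CPM in the 4 LPS+TSLP libraries, 75.7, 59.6 and 63.2 CPM in the 3 LPS libraries, and 10.7, 16.8 and 23.2 CPM in the 3 Vehicle libraries, with every treated library above Vehicle (log2 fold change 1.97, SE 0.26, adjusted p = 0.00196). The kinases that activate interferon regulatory factors rose, Tbk1 by 1.14 (SE 0.22, adjusted p = 0.00682) and Ikbke by 2.85 (SE 0.59, adjusted p = 0.00825), as did Usp15, a deubiquitinase, by 1.36 (SE 0.26, adjusted p = 0.00599) and Il10rb, a chain of the interferon lambda and IL-10 receptors, by 1.21 (SE 0.25, adjusted p = 0.0085). Mavs, the mitochondrial adaptor of RIG-I and MDA5, was the 1 gene that fell. It had 27.4, 25, 24.8 and 32.6 CPM in the 4 LPS+TSLP libraries, 21.6, 22.4 and 27.4 CPM in the 3 LPS libraries, and 50.1, 44.7 and 36.3 CPM in the 3 Vehicle libraries (log2 fold change −0.87, SE 0.20, adjusted p = 0.011), and all treated libraries lay below all Vehicle libraries. Jak2 and Ifng were also among the 8. In LPS+TSLP against LPS 0 of 28 were called, with a median of −0.19. In LPS+TSLP against Vehicle 5 of 28 rose (17.9%, against 8.82% of all tested genes), Ptpn2 by 1.60 (SE 0.24, adjusted p = 0.00373), Usp15 by 1.28 (SE 0.25, adjusted p = 0.00951), Il10rb by 1.02 (SE 0.24, adjusted p = 0.0204), Tbk1 by 0.83 (SE 0.21, adjusted p = 0.0266) and Ikbke by 2.11 (SE 0.55, adjusted p = 0.0299), and Mavs fell by a log2 change of −0.67 (SE 0.18, adjusted p = 0.0331).

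Promoter elements occurred in called and in uncalled members. Of the 12 members that rose after LPS and had a promoter in the reference, 5 held an ISRE core (Ifih1, Eif2ak2, Isg15, Bst2 and Ifitm3) and 5 a GAS match. Of the 24 tested members with a promoter that were not called, 7 held an ISRE core (Stat2, Ddx58, Trim21, Trim30a, Rsad2, Ifitm2 and Phf11b) and 4 a GAS match. By role, an ISRE core was present in 3 of 5 sensors, 3 of 6 genes of the ISG15 and ubiquitin pathway, 2 of 3 IFITM genes, 2 of 5 restriction factors, 1 of 4 transcription factors and 1 of 8 of the other interferon-stimulated genes. None of the 4 receptor chains held one, and 2 of them, Ifnar1 and Ifnar2, held a GAS match.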

How the data were processed

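Total RNA of whole lung tissue was sequenced as 10 libraries (LPS+TSLP 4, LPS 3, Vehicle 3). The authors deposited raw read counts per gene, made with CASAVA, HISAT2 and HTSeq 0.6.0, per the submitters' processing notes; the annotation release and strand setting are not given in the sources used here. Counts were checked to be whole numbers. Genes passing filterByExpr (17139) were scaled by TMM and tested in edgeR 4.0.16 (quasi-likelihood, robust; R 4.3.3) in 1 fit of 3 groups with 7 residual degrees of freedom, two-sided, Benjamini-Hochberg adjusted over all 17139, and called under 0.05. Log2 CPM used a prior count of 2. The members, lists and rules for naming genes were chosen with earlier results of these data known. Values in every library are given for the ligand, receptors and transcription factors, the 2 smallest adjusted p per other role in LPS against Vehicle, and the 5 smallest p in LPS+TSLP against LPS; other members are given by fold change, mean or count. The libraries of Lgals3bp were added after its values were seen. Positions, exon lengths and 50-base stretches shared between genes, on either strand, came from GENCODE M21 (GRCm38). A gene of the list outside the members is counted but not reported here by name. The fit was tested on simulated data. Alternatives were other scalings and filters, DESeq2 1.42.0, limma 3.58.1 voom, fits of 2 groups, the replicate number as a block, GC and length trends (loess, span 0.3), removal of mitochondrial, haemoglobin and immunoglobulin genes, and omission of libraries.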

Additional observations from a re-analysis of the deposited data

Results flagged for a closer look

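Helz2, a helicase that acts as a nuclear receptor coactivator, had 221.97 CPM in LPS+TSLP replicate 3, far above the 153.6 CPM of the nearest and the 139.58 CPM of the lowest of the 4 LPS+TSLP libraries. The gap took 0.83 of the range of the group, just past the 95% critical value of Dixon's test for 4 samples. It was the 1 member of 46 examined with such a gap in that group, and chance gives such a gap in about 1 in 20 groups. The LPS libraries had 89.6, 229.7 and 185 CPM and the Vehicle libraries 183, 286 and 227 CPM, so the value lay within the range of both.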

How the results depend on the processing

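The number of members that rose in LPS against Vehicle was 13, and 10 to 15 under other scalings and filters, limma-voom, removal of GC or length trends, and removal of mitochondrial, haemoglobin and immunoglobulin genes. It was 21 with the DESeq2 Wald test (17.6% of all genes rose there), 23 with the 2 groups alone (16.5%), 7 without both LPS replicate 1 and LPS+TSLP replicate 1 (13.6%), and 5 to 19 when 1 library was left out. In LPS+TSLP against Vehicle, 4 rose, against 12 with the DESeq2 Wald test (13.4% of all genes), 2 with the GC trend removed (4.48%), and 2 to 11 with 1 library left out. There 0 fell, against 1 (Trim25) without those 2 libraries, and 0 to 1 with 1 library left out. LPS+TSLP against LPS gave 0 members in either direction under each of the 23 alternatives. Same-numbered libraries correlated from −0.344 to 0.405 after removal of group means, over 0.1 in 3 of 9 pairs. Libraries with different numbers were not compared in this way, so these values cannot show whether the numbers mark pairs. With the replicate number as a block, 13 members rose in LPS against Vehicle (Isg15 and Rtp4 were no longer called, and Mx2 and Phf11d were). The block gave 0 members in LPS+TSLP against LPS and 7 in LPS+TSLP against Vehicle (with Ifih1, Mx2 and Bst2). Its median over members in LPS+TSLP against LPS was −0.10 with 35 below 0, against −0.31 with 43 below 0 in the main fit. Ifngr1 turned to 0.031 with the GC trend removed, and Ifnar1 to 0.016 without those 2 libraries, both in LPS against Vehicle; the cause was not tested. Over 46 members and 23 alternatives, the sign changed in 14 of 1058 values in LPS against Vehicle, in 63 in LPS+TSLP against LPS and in 38 in LPS+TSLP against Vehicle. With 3 or 4 libraries a group and a wide spread in Vehicle and LPS+TSLP, a member that misses the threshold is not shown to be unchanged.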
